A study of Mus musculus with 2 samples.

Results

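The 35 genes described here were p53, its regulator Mdm2, 15 of its transcriptional targets, and genes of apoptosis: 10 of the BCL2 family, 4 caspase and apoptosome genes, 2 death receptors and 2 inhibitors of caspases. They were chosen by name, as every non-control probe whose gene name on the array was one of the 35, which gave 74 of 56603 probes and 35 of the 37060 gene names on the array. Brain RNA of C57BL/6J mice at postnatal day 10 was measured on 1-colour Agilent arrays, with 1 array for the genotype GPHR F/F;Nes and 1 for its GPHR F/F littermate control. Both groups carry the F/F alleles of GPHR, the Golgi pH regulator, an anion channel of the Golgi membrane. The labels do not say what Nes drives or in which cells, nor how many animals gave each RNA.

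p53 is a transcription factor that is kept low by the ubiquitin ligase Mdm2 and is stabilised by DNA damage and other stresses. It induces genes that halt the cell cycle, repair DNA or start cell death, and it induces Mdm2, which closes a feedback loop. In the mitochondrial path of apoptosis, BH3-only proteins release the pore formers Bax and Bak1 from the survival proteins of the BCL2 family. Cytochrome c then reaches Apaf1, which activates caspase 9. Death receptors such as Fas activate caspase 8. In the developing brain, p53 and this machinery set the survival of progenitors and young neurons.

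Levels are log2 processed signals relative to the 75th percentile of each array, and a difference is the level in GPHR F/F;Nes less that in GPHR F/F. With 1 array for each genotype there was no test. Each ± is the error that the scanner software reports, which leaves out differences between animals. For a mean over probes, the errors of its probes are combined as if independent, which leaves out disagreement between probes. That of Aen was 0.09, where the SD between its 5 probes was 0.51. For GPHR F/F the 75th percentile was 259.5 units with 67.0% of probes well above background, for GPHR F/F;Nes 173.4 units with 69.2%, and both arrays had 0 saturated spots. Gpr89, which encodes GPHR, differed by -0.53 ± 0.22. All 8 neuron markers and all 7 astrocyte markers had signal on both arrays, as brain RNA would. Xist was seen only on the GPHR F/F;Nes array, and Uty, Ddx3y and Eif2s3y of the Y chromosome only on the control array, so genotype and sex cannot be told apart. In whole tissue, fewer cells of a type and less RNA in each cell cannot be told apart either.

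As a group, the genes of p53 and apoptosis lay close to all other genes. Of the 35, 33 were measured, that is, well above background on both arrays. At least 2-fold higher in GPHR F/F;Nes were 2 of them, Fas and Casp12 (6.06%), against 7.94% of all 23946 measured genes. None was 2-fold lower, against 1.37% of all. The median difference was 0.10 over the 33 members and 0.07 over all genes, and 18 of the 33 members lay above the median of all genes.

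At the lower threshold of 1.5-fold, 5 members were higher (15.2%, against 18.2% of all genes). They were Fas, Casp12, the death receptor Tnfrsf10b, the stress gene Gadd45a and Trp53 itself. Zmat3 alone was 1.5-fold lower (3.03%, against 5.69% of all genes). Of the 33 members, 13 lay within 1 scanner error of 0, while 10 lay above 0 and 2 below 0 by more than 2 such errors. The like shares of all genes were not counted. All genes leaned upward as well, with the 18.2% and 5.69% given above, but at 1.5-fold, which is another threshold. Whether the counts by scanner error set the members apart was thus not tested. Scanner errors also leave out disagreement between probes, as for Cdkn1a below. At 3-fold no member was higher, against 2.29% of all genes, and none lower, against 0.251%. Fas passed 3-fold on its brightest probe alone (3.03-fold higher), but not as the mean over its 2 measured probes. The SD of the differences was 0.45 over the members and 0.57 over all genes.

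**Figure D1:**
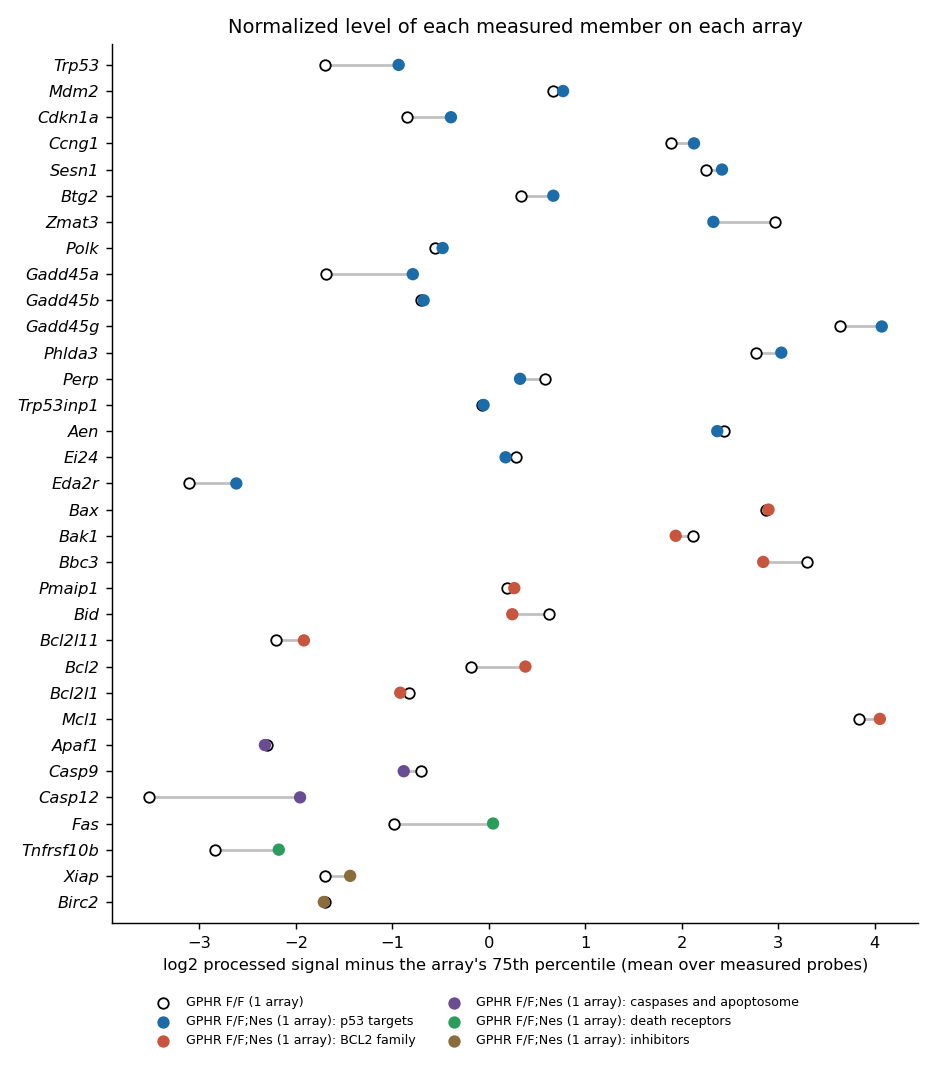
Normalized log2 level of the 33 measured members on the GPHR F/F array (open circles) and the GPHR F/F;Nes array (filled circles, coloured by class), each a mean over the member's measured probes. The widest gaps are those of Casp12 and Fas, and in most rows the circles nearly touch. Levels of different genes come from different probes and are not to be compared with each other.

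The sign of these differences depends on the scaling. Relative to the main setting, the median of all genes moved by -0.28 with each array centred on its median, by -0.11 after quantile normalization, by -0.95 after scaling to spike-in RNAs and by 0.20 with dim probes kept. Above 0 were 22 of 33 members in the main setting, 11 after centring on the median and 2 after spike-in scaling. Centring and spike-in scaling move every gene by 1 constant, so they leave the member median 0.03 above the median of all genes by construction. It was 0.10 above after quantile normalization, and it lay below, by -0.10, with dim probes kept.

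p53 itself was on the higher side. The level of Trp53 was -1.70 in the control and -0.93 in GPHR F/F;Nes. The difference was 0.76 ± 0.21 (1.70-fold higher), from 1 probe in chr11:69403134-69403193 of mm9. The median of genes of like level, the same bin among 20 bins of mean level, was 0.08, and 8.19% of the genes in that bin were as high. After spike-in scaling the difference of Trp53 was -0.19. Mdm2, at once a target of p53 and its main inhibitor, differed by 0.10 ± 0.15, with its 2 probes at 0.16 and 0.05. Its bright probe, with raw signals of 2619 and 1953 units, and its dim probe, with 64.7 and 44.8 units, thus both gave a small difference.

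Cdkn1a encodes p21, the cyclin-dependent kinase inhibitor that carries much of the cell cycle arrest set by p53. Its 2 measured probes disagreed. The probe for transcript variant 1 (chr17:29237377-29237436 of mm9) stood at 1.59 in the control and 1.68 in GPHR F/F;Nes, a difference of 0.09 ± 0.20. The probe for transcript variant 2 (chr17:29227986-29228045) stood at -3.29 and -2.46, a difference of 0.82 ± 0.22. The bright probe, with raw signals of 781.5 and 554.0 units, was thus nearly level between the genotypes, and the dim one, with 26.6 and 31.5 units, was higher in GPHR F/F;Nes. The other probe was well above background on neither array. The mean of the 2 probes was 0.45 ± 0.15, with an SD of 0.52 between them.

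The upstream one of the annotated Cdkn1a starts had a window with a p53 full site, and its sequence is shown because Cdkn1a is the reference target of p53. A full site is a pair of p53 half-sites with at most 13 bases between them. Only 24 of 32851 RefSeq promoter windows (0.0731%) held one. Each window spans 250 bases before and 50 after a start, on GRCm38.p6. Only exact matches to the half-site consensus were marked, so the bases tgacatgttc directly after GAACATGTCT stay in lower case. Which of these stretches p53 binds was not tested. The 250 bases before the start follow, on the plus strand, with the 2 exact half-sites, 12 bases apart, in capitals:
Cdkn1a (chr17:29090729-29090978): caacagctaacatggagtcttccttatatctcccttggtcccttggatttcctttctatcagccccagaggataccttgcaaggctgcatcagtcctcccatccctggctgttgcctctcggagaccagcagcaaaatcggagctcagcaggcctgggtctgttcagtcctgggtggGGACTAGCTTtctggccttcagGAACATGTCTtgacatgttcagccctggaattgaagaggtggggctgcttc

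Windows were found for 29 of the 35 members, 41 windows in all. The p53 half-site consensus, which reads the same on both strands, was present in 12 of the 41 windows (29.3%), against 8.36% of all 32851 windows. It was in 10 of 18 windows of the class of p53 and its targets, and in 2 of 23 windows of the other members. That class was drawn up from known p53 targets. The other members include Bbc3, Pmaip1, Fas and Tnfrsf10b, which are p53 targets too, so the split does not separate targets from other genes. A match is a description of the letters and shows no binding. The half-sites that lie before the start are shown in capitals within up to 15 bases on each side, 5′ to 3′ along the gene, on GRCm38.p6:
Mdm2 (chr10:117710920-117710959, minus strand): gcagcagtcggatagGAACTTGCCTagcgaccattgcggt
Trp53 (chr11:69580269-69580308, plus strand): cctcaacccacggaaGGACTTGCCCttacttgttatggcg
Ccng1 (chr11:40755447-40755486, minus strand): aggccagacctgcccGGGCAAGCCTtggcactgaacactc
Sesn1 (chr10:41887251-41887290, plus strand): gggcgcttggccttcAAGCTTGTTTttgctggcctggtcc
Gadd45a (chr6:67037423-67037462, minus strand): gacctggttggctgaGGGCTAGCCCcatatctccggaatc
Polk (chr13:96519394-96519433, minus strand): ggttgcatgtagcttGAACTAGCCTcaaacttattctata
Aen (chr7:78895922-78895961, plus strand): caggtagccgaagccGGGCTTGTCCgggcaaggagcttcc
Ei24 (chr9:36797335-36797359, minus strand): tgccccgtgcggcccGGGCATGCCC
Bax (chr7:45467075-45467114, minus strand): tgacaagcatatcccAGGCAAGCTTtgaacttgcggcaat
The Aen site lies in 2 overlapping windows, and that of Birc2 lies after its start. The genes in these lines included members on both sides of 0, Gadd45a at 0.90, Trp53 at 0.76, Ccng1 at 0.24, Mdm2 at 0.10, Aen at -0.07 and Ei24 at -0.11. For Casp12 and Fas, the caspase and the death receptor with the largest differences among the measured members, the windows held no half-site.

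Of the 9 targets that act on growth, the cell cycle and repair, Gadd45a had the highest difference and Zmat3 the lowest. Above 0 were 8 of the 9, against 13651 of all 23946 genes, and 7 lay above the median of all genes. None differed 2-fold, against 7.94% of all genes higher and 1.37% lower, but 9 genes are too few for this to set them apart. Over all 17 genes of p53 and its targets, 13 lay above 0, but 6 after centring on the median and 0 after spike-in scaling. Above the median of all genes were 11 of the 17. That count was 12 after quantile normalization, 14 after normexp correction and 6 with dim probes kept. Gadd45a, which binds PCNA and p21 and slows the cell cycle after DNA damage, stood at -1.69 in the control and -0.79 in GPHR F/F;Nes. It differed by 0.90 ± 0.21 (1.87-fold higher) on its 1 measured probe (chr6:66985376-66985435 of mm9), and a second probe had signal on neither array. In its level bin, 6.60% of genes were as high.

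Its relatives gave differences of unlike size. Gadd45g, at 3.64 and 4.07, differed by 0.43 ± 0.20, and 7.10% of the genes of its level bin were as high. Gadd45b, at -0.70 and -0.68, differed by 0.03 ± 0.20. After spike-in scaling Gadd45a stood at -0.05, Gadd45g at -0.52 and Gadd45b at -0.93, since that scaling moves every gene by the same amount.

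Zmat3, an RNA-binding zinc finger protein that p53 induces, had the largest difference below 0 of all members. Its level was 2.96 in the control and 2.33 in GPHR F/F;Nes, a difference of -0.63 ± 0.20 (1.55-fold lower) on 1 bright probe (chr3:32233831-32233890 of mm9). In its level bin 5.43% of genes were as low, and over all genes 4.71%. It lay below the median of all genes in all 15 settings, at -0.91 to -0.51 relative to that median. The difference itself ran from -1.59 after spike-in scaling to -0.52 after loess correction.

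The other growth and repair targets differed little. Btg2, which restrains proliferation, differed by 0.34 ± 0.14, with its 2 probes at 0.33 and 0.35. Ccng1, a cyclin that acts back on Mdm2, differed by 0.24 ± 0.20. Sesn1, a sestrin that restrains mTORC1, differed by 0.17 ± 0.20. None of Btg2, Ccng1 and Sesn1 reached 1.3-fold in the main setting, and Btg2 stood at 0.40 after loess correction. In their level bins 15.8%, 18.55% and 19.7% of genes were as high. Polk, a polymerase that copies past damaged bases, differed by 0.08 ± 0.20 on its brightest probe. Its 2 other probes were above background only in the control, by at least 2.10-fold and 1.48-fold, so the 3 probes of Polk did not give one answer.

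The targets that act in cell death lay on both sides of 0. Of 6 genes, 3 lay above 0. None differed 1.5-fold, against 18.2% of all genes higher and 5.69% lower, but 6 genes are too few for this to set them apart. Phlda3, which restrains the kinase Akt, differed by 0.26 ± 0.20. Trp53inp1, a stress-induced partner of p53, differed by 0.01 ± 0.15, and the membrane protein Ei24 by -0.11 ± 0.12. Perp, a membrane protein of desmosomes that p53 also induces, stood at 0.58 and 0.32, a difference of -0.26 ± 0.20. Eda2r, a receptor of the tumour necrosis factor family on the X chromosome, differed by 0.49 ± 0.18, with its 2 measured probes at 0.52 and 0.46. Both of its probes were dim, and the median of its level bin was 0.28.

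Aen, an exonuclease that degrades DNA in dying cells, showed how much a gene's value can rest on the probe. Of its 5 probes, 4 lay between -0.40 and -0.23, among them the 3 designed to NM_026531. The fifth, designed to ENSMUST00000172017 (chr7:86044485-86044544 of mm9), stood at 1.81 in the control and 2.66 in GPHR F/F;Nes, a difference of 0.84 ± 0.20. The mean over all 5 was -0.07 ± 0.09, with an SD of 0.51 between probes.

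**Figure D2:**
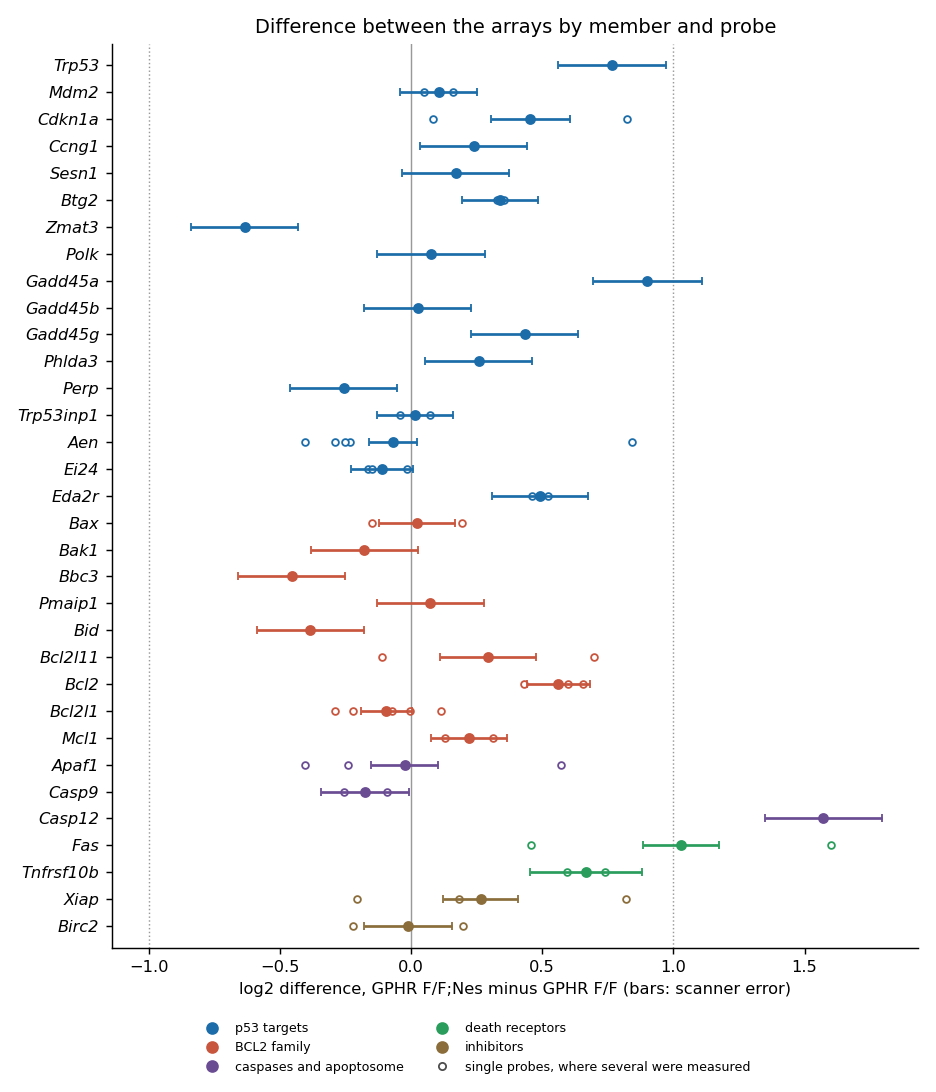
Log2 difference (level in GPHR F/F;Nes less that in GPHR F/F) of the 33 measured members, as the mean over probes (filled, with the scanner error as a bar) and for single probes where several were measured (open circles). Dotted lines mark 2-fold. Casp12 and Fas lie beyond the upper line and no member beyond the lower one, and the open circles of Fas, Cdkn1a, Aen, Apaf1, Bcl2l11 and Xiap are spread widely. After spike-in scaling 31 of the 33 would lie below 0.

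No measured gene of the BCL2 family differed 2-fold, against 7.94% of all genes higher and 1.37% lower. With 9 genes measured, this absence does not set the family apart. Of 9 measured members, 5 lay above 0 and 3 above the median of all genes, with a class median of 0.02. Bik, a BH3-only gene, had signal on neither array. The class median was below 0 in 5 of the other settings (centring on the median, spike-in scaling, normexp correction, the stricter filter and the brightest probe), so it has no stable sign.

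The pore formers were nearly level. Bax, at 2.88 and 2.90, differed by 0.02 ± 0.14, with its 2 probes at 0.20 and -0.15. Bak1, at 2.12 and 1.94, differed by -0.18 ± 0.20. Each difference was below 1 scanner error.

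Of the BH3-only genes, the p53 targets Bbc3 and Pmaip1 gave differences of opposite sign. Bbc3, which encodes PUMA, stood at 3.30 in the control and 2.85 in GPHR F/F;Nes, a difference of -0.45 ± 0.20 (1.37-fold lower), and 11.4% of the genes of its level bin were as low. Pmaip1, which encodes NOXA, stood at 0.19 and 0.26, a difference of 0.07 ± 0.20. Bid, which caspase 8 cleaves to link death receptors to mitochondria, stood at 0.63 and 0.24, a difference of -0.38 ± 0.20. The brighter signal was thus in the control for Bbc3 and Bid, by 1.37-fold and 1.30-fold. The 2 measured probes of Bcl2l11, which encodes BIM, disagreed at -0.11 ± 0.20 for the bright one and 0.70 ± 0.30 for the dim one.

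Among the survival members, Bcl2 had the largest difference, and its 3 probes gave like values. The probe for its NM_009741 transcript stood at 1.72 in the control and 2.38 in GPHR F/F;Nes, a difference of 0.65 ± 0.20, and the others differed by 0.60 ± 0.20 and 0.43 ± 0.21. The mean was 0.56 ± 0.12 (1.48-fold higher), and 9.36% of the genes of its level bin were as high. After spike-in scaling it was -0.39. Mcl1, a short-lived survival protein, differed by 0.22 ± 0.14. Bcl2l1, which encodes BCL-XL, differed by -0.09 ± 0.10 over 5 probes that ranged from -0.29 to 0.12.

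The death receptors held 1 of the 2 members past 2-fold. Fas, the receptor of Fas ligand and a target of p53, had 3 probes. The probe for its NM_007987 transcript (chr19:34402164-34402223 of mm9) stood at -0.76 in the control and 0.84 in GPHR F/F;Nes, with raw signals of 153.5 and 310.8 units. This is a difference of 1.60 ± 0.20 (3.03-fold higher). The probe for NM_001146708, also on chromosome 19, was above background only on the GPHR F/F;Nes array, by at least 1.93-fold. Both probes on chromosome 19 were thus brighter in GPHR F/F;Nes.

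The third Fas probe was designed to L15353, which the array describes as a Fas mRNA that contains an ETn retrotransposon, and the array places it at chr4:40555124-40555183 and not at the Fas locus. It stood at -1.21 and -0.75, a difference of 0.46 ± 0.21. Whether its signal comes from Fas was not tested. With that probe the mean of Fas was 1.03 ± 0.14, with an SD of 0.81 between probes, and 4.76% of the genes of its level bin were as high. Without it Fas was 1.60. Fas lay above 0 in all 15 settings, from 0.08 after spike-in scaling to 1.60. It was below 2-fold with each array centred on its median (0.75), after quantile normalization (0.99), after spike-in scaling and after normexp correction (0.76).

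Tnfrsf10b, the mouse receptor for TRAIL and a target of p53, leaned the same way. Its brightest probe stood at -0.64 in the control and -0.04 in GPHR F/F;Nes, a difference of 0.59 ± 0.20, and a dim probe differed by 0.74 ± 0.37. The remaining probe was above background only on the GPHR F/F;Nes array, by at least 1.41-fold. The mean of 0.67 ± 0.21 was not unusual for its level: 22.6% of genes in its bin, whose median was 0.24, were as high. After spike-in scaling it was -0.29.

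Of the member caspases measured on both arrays, Casp12 had the largest difference. Casp12, a rodent caspase of the endoplasmic reticulum that is grouped with the inflammatory caspases by sequence, stood at -3.53 in the control and -1.96 in GPHR F/F;Nes, with raw signals of 22.5 and 44.7 units (chr9:5372258-5372317 of mm9). The difference was 1.57 ± 0.22 (2.97-fold higher), and 3.51% of genes in its level bin were as high. It was the largest of all members, but Fas was larger, at 1.60, without its L15353 probe, and at 0.76 against 0.56 after normexp correction. A second probe was above background only on the GPHR F/F;Nes array, by at least 1.83-fold. Casp12 lay above 0 in all 14 settings that measured it, at 0.56 after normexp correction and 0.62 after spike-in scaling, and the stricter filter on dim probes removed it.

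Among the genes of the classic apoptotic cascade, Casp9 and Apaf1 lay below 0 and Casp8 was on the higher side. Casp9, the initiator that the apoptosome activates, stood at 2.46 and 2.21 on its bright probe, a difference of -0.26 ± 0.20, and its mean over 2 probes was -0.17 ± 0.17. Apaf1, the core of the apoptosome, had a mean of -0.02 ± 0.13 over 3 probes, which stood at -0.24, -0.40 and 0.57. Casp8, the initiator at death receptors, was above background only on the GPHR F/F;Nes array. Its raw signal there was 6.28 units, where the lowest that counted as above background was 5.06, and it was at least 1.496-fold higher.

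Some probes were above background on a single array. On the GPHR F/F;Nes array these were 4 of the 74 member probes, 1 each of Casp8, Casp12, Fas and Tnfrsf10b. On the control array they were 3 of the 74, namely 2 of Polk and 1 of Bcl2l11. Of all 56603 probes, such single-array signals were 4.38% for GPHR F/F;Nes and 2.14% for GPHR F/F.

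The inhibitors of caspases differed little. Xiap, which binds and blocks active caspases and lies on the X chromosome, had a mean of 0.27 ± 0.14 over 3 probes. Its brightest probe stood at 2.72 and 2.91, a difference of 0.18 ± 0.20, and the dim ones differed by -0.21 ± 0.23 and 0.82 ± 0.30. Birc2, which encodes the ubiquitin ligase cIAP1, had a mean of -0.01 ± 0.17, with its 2 probes at -0.22 and 0.20.

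**Figure D3:**
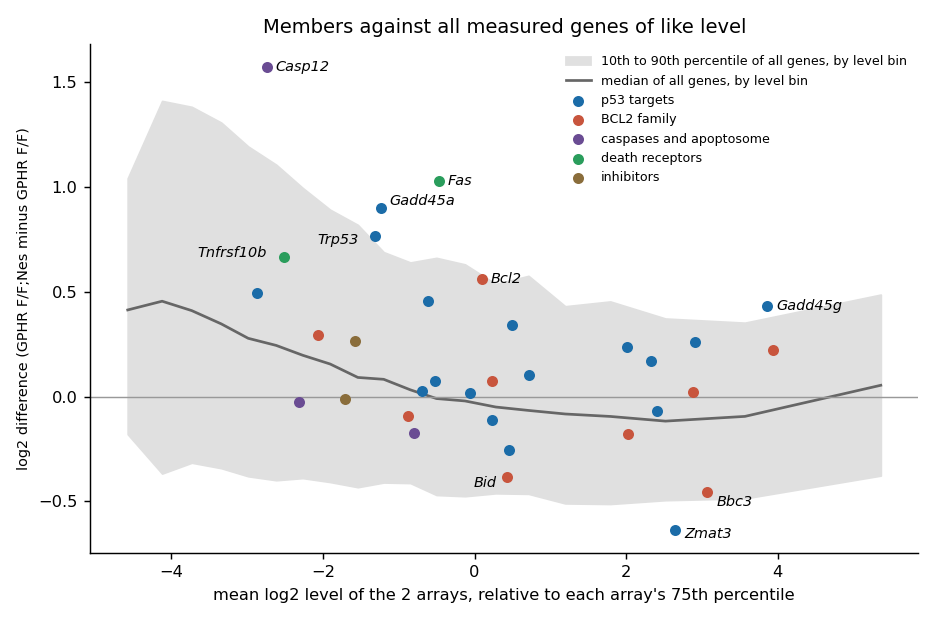
Log2 difference of each measured member against its mean log2 level on the 2 arrays, with the median of all 23946 genes (line) and their 10th to 90th percentile (band) in 20 bins of level. The band is wider and shifted upward for dim genes, where bin medians reach 0.45. Casp12, Fas, Gadd45a, Trp53 and Gadd45g lie above the band and Zmat3 below it. Bcl2 lies close to the upper edge, at 0.56, where the 90th percentile of its own bin is 0.54 and that of the next dimmer bin 0.63.

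Markers of several cell types differed in the same direction as Fas and Casp12. Of 13 microglia markers, 11 were measured and 6 were at least 2-fold higher, with a median of 1.16. Their summed normalized level was 44.2 in the control and 95.5 in GPHR F/F;Nes. P2ry12 had signal on neither array, and Tmem119 only on the GPHR F/F;Nes array. Most of the sum is Itgam, at levels of 5.33 and 6.49. Of 8 markers of meninges and fibroblasts, 5 were 2-fold higher (median 2.03, summed level 8.57 and 11.4), while Pdgfra differed by -0.67 and Dcn by -0.07. Most of this sum is Dcn, at levels of 2.70 and 2.63. The 4 measured markers of 8 for endothelium and pericytes had a median of 1.19 and summed levels of 0.654 and 1.69, whereas Cldn5, Cdh5, Rgs5 and Kcnj8 had signal on neither array. The 4 measured markers of 6 for choroid plexus had a median of 1.40 (0.767 and 5.81), with Kl on neither array and Clic6 only on the GPHR F/F;Nes array.

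For Gadd45a, Cdkn1a and Trp53, markers of cycling cells are of interest as well, since p53 acts on the cell cycle. All 7 were measured and above the median of all genes, with a median of 0.82 and summed levels of 15.2 and 20.1. Neuron markers were on the other side, with all 8 below 0, a median of -0.22 and summed levels of 85.7 and 66.6. The 8 markers of the oligodendrocyte lineage lay on both sides of 0, with a median of -0.07, but their summed level was 13.5 in the control and 7.42 in GPHR F/F;Nes, with Gpr17 at -2.46 and Sox10 at -0.88. Of 4 erythrocyte markers only Hba-a1 was measured, at -0.28. The 7 astrocyte markers had a median of 0.29 and summed levels of 56.1 and 55.9. The part of these cell types in the differences of the members was not tested.

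The wider pathway was described with 99 other genes, listed by function. Of the 88 that were measured, 8 were at least 2-fold higher (9.09%) and 1 was 2-fold lower (1.14%), against the 7.94% and 1.37% of all genes given above. Their median was 0.14.

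Other p53 targets held the largest differences on both sides. Of 26 measured, 2 were 2-fold higher and 1 lower. Gdf15, a secreted stress hormone, stood at -1.48 in the control and 0.49 in GPHR F/F;Nes, a difference of 1.97 ± 0.21 (3.93-fold higher). Ddit4, a stress gene that restrains mTORC1, stood at 5.50 and 3.96, a difference of -1.53 ± 0.20 (2.90-fold lower). Gdf15 and Ddit4 answer to other stress pathways besides p53. The median of the 26 was 0.21.

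Genes that regulate p53 were nearly level as a group, with a median of 0.11 over 20 genes. Only Cdkn2a, whose locus encodes the Mdm2 inhibitor p19Arf as well as p16, passed 2-fold, at 1.02 ± 0.21 on its 1 measured probe. Trp63 had a mean of 0.78 ± 0.16 and Trp73 one of 0.56 ± 0.15, and the 2 measured probes of each disagreed by SDs of 0.68 and 1.06. Mdm4, the partner of Mdm2, differed by 0.35 ± 0.09 over 6 probes.

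The rest of the BCL2 family had a median of -0.07 over 11 genes, of which 3 were 2-fold higher. These were dim genes measured by 1 probe each. Bcl2a1d, a survival gene of blood cells from a family of near-identical copies that its probe may not separate, differed by 1.41 ± 0.29. Bcl2l12 differed by 1.08 ± 0.21 and Bcl2l15 by 1.05 ± 0.25. In the level bins around Bcl2a1d and Bcl2l15, the 90th percentile of all genes was 1.31 to 1.41, so neither stood clearly above genes of like level. Around Bcl2l12 that percentile was 0.89 to 0.99. The share of genes of like level that were as high was not counted for these genes. Of the bright genes, the mitophagy receptor Bnip3 differed by -0.92 ± 0.20.

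An inflammatory caspase gave the only 2-fold difference among the other caspases. Of 14 caspases and mitochondrial death factors, only Casp4, which senses bacterial lipopolysaccharide in the cytosol and drives pyroptosis, passed 2-fold, at 1.77 ± 0.23 (3.42-fold higher). Casp6, which cleaves lamins, differed by 0.43 ± 0.20, and the DNA fragmentation factor Dffa by -0.33 ± 0.15. Casp2, which the PIDD complex activates, differed by 0.46 ± 0.15. The median of the 14 was -0.08.

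In the death receptor pathway no further gene passed 2-fold, although several stood just below it. Of 12 measured, 8 lay above 0, with a median of 0.16. Cflar, the inhibitor of caspase 8 at death receptors, differed by 0.89 ± 0.11 over 4 probes, Tnfrsf25 by 0.89 ± 0.21 and Tnfrsf1a, the main receptor for tumour necrosis factor, by 0.87 ± 0.15. Fasl, the ligand of Fas, was dim and differed by -0.43 ± 0.34.

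Of 9 further inhibitors, 5 were measured, and all 5 lay above 0 with a median of 0.54. Birc3, which encodes cIAP2, differed by 1.53 ± 0.36, but on 1 dim probe of 4, and its probe for NM_007464 had signal on neither array. Birc5, which encodes survivin and is made by dividing cells, differed by 0.73 ± 0.15. Birc7 differed by 0.54 ± 0.24 over 2 dim probes. Xaf1, an antagonist of Xiap that interferon induces, was above background only on the GPHR F/F;Nes array, by at least 3.40-fold.

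**Figure D4:**
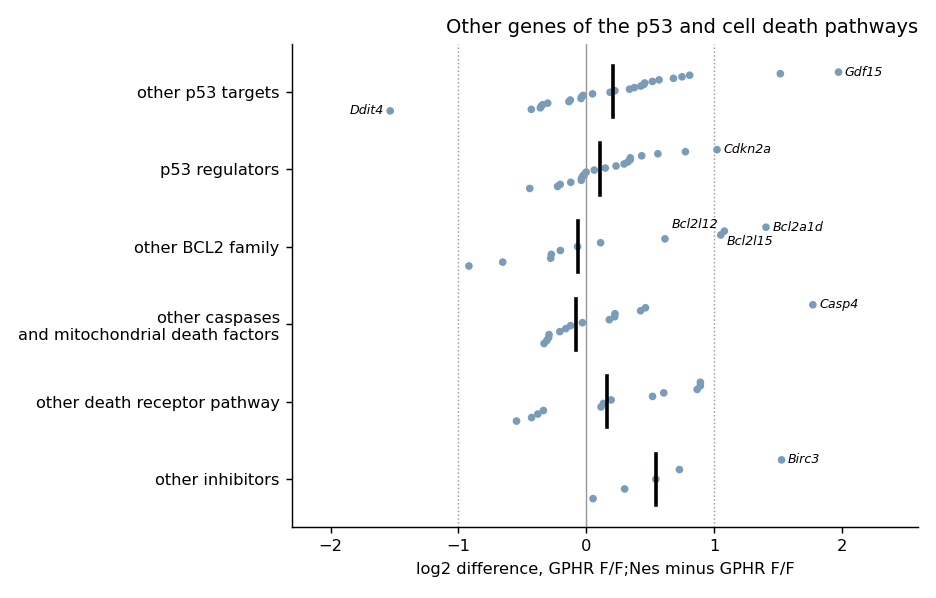
Log2 difference (level in GPHR F/F;Nes less that in GPHR F/F) of 88 other measured genes of the p53 and cell death pathways in 6 lists, 1 point a gene, with the list median as a black bar and 2-fold as dotted lines. Most points lie between the dotted lines, 8 lie to the right and Ddit4 to the left. After spike-in scaling 1 gene would be 2-fold higher and 29 would be 2-fold lower.

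**Figure D5:**
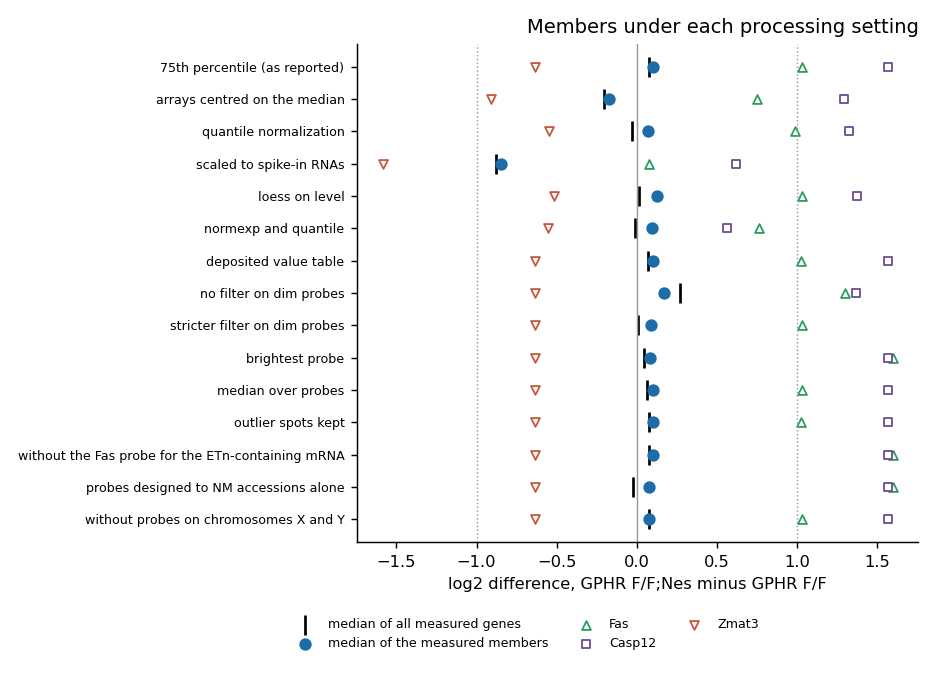
Log2 differences under the main setting and 14 others: the median of the measured members, the median of all measured genes, and Fas, Casp12 and Zmat3 as single genes. The member median follows the median of all genes, including its shift to the left after spike-in scaling, while Fas and Casp12 stay to the right of both and Zmat3 to the left.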

How the data were processed

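Total RNA of mouse brain was hybridised to 1 array for each of 2 genotypes, per the labels' protocols after TRIzol extraction and Cy3 labelling. Scans were read with Agilent Feature Extraction 11.5.1.1, per the submitters' processing notes. Per the file headers, the deposited processed intensity is on a linear scale, background-subtracted and detrended, and the deposited flags (other values, 0 or 1) mark spots above background or outliers. The authors' deposited value table is on the log2 scale. It equals the log2 processed intensity plus a constant per array (-8.01 and -7.43, within 0.001 for 99.9% of probes), with column medians of -3.19 and -2.92. What set the constants is not stated.

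Outlier spots were dropped, spots of a probe averaged on the log2 scale and the 75th percentile of each array subtracted. A probe was measured when well above background on both arrays (36717 probes), and a gene's value is the mean over its measured probes. No member probe had replicate spots; for 298 other probes that did, the pooled SD was 0.0507 and 0.0534. For a probe with signal on 1 array alone, the bound sets that signal against the higher of the dim signal and the lowest signal above background (6.28 units in the control, 5.06 units in GPHR F/F;Nes), after scaling. Accessions matched RefSeq names of GRCm38.p6 for 32993 of 56603 probes, and 1889 probes changed name, none of them a member's. Probe coordinates are mm9, per the file headers. Exon and UTR positions of the probes were not analysed here.

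No test was made, since 1 array a group leaves no residual degrees of freedom, and the number of arrays limits the precision. The slide and the scan were shared by both arrays. Members and lists were chosen with earlier results of these data known. All members are named, and of the other pathway genes those past 2-fold and up to 3 per list, except some that are not reported here. Mdm4, Bnip3, Dffa, Fasl and Xaf1, and the markers Itgam, Dcn and Pdgfra, were chosen after their values were seen. Alternatives were centring on the median, quantile normalization, 8 spike-in probes, loess (span 0.3), normexp (offset 50) with quantile normalization, the deposited table, no filter or a filter at 4 times the lowest signal, a gene's brightest probe or its probes' median, outliers kept, and thresholds of 1.5-fold and 3-fold. After the data were seen, 3 more were added: Fas without its L15353 probe, NM accessions alone, and no probes of chromosomes X and Y. Python 3.11.15 with numpy 2.4.6, pandas 2.3.3 and matplotlib 3.10.9, and R 4.3.3 with limma 3.58.1 were used. The calculation was tested on simulated arrays.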

Additional observations from a re-analysis of the deposited data

How the results depend on the processing

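No paired analysis was possible because each genotype had 1 array, and no replicate could be left out for the same reason. Of 459 values of single members under the alternatives, 347 moved by less than their scanner error, 112 moved by more, and no member past 2-fold changed sign. The count of members at least 2-fold higher, 2 as reported, was 1 with each array centred on its median, after quantile normalization and with the stricter filter, and 0 after spike-in scaling, after normexp correction and at 3-fold. It was 5 at 1.5-fold. The count 2-fold lower was 9 after spike-in scaling and 1 at 1.5-fold. Of the other pathway genes, 8 were higher as reported, 5 after centring, quantile normalization or loess, 4 with the stricter filter, 1 after spike-in scaling or normexp, 18 at 1.5-fold and 2 at 3-fold. Lower were 1 as reported, 2 after centring, 29 after spike-in scaling, 3 at 1.5-fold and 0 at 3-fold. The member median was -0.17 after centring and -0.85 after spike-in scaling, and that of p53 targets -0.11 and -0.78. Both shifts follow the median of all genes, which moved by -0.28 and -0.95. The BCL2 family median was -0.25 after centring, -0.93 after spike-in scaling, -0.013 after normexp, -0.063 with the stricter filter and -0.074 with the brightest probe. The caspase median, over 3 genes, was -0.30 after centring, -0.23 after quantile normalization, -0.98 after spike-in scaling, -0.24 with the brightest probe and 0.67 with dim probes kept, which adds Casp8 from background. The causes of the other changes were not tested. Of the genes 2-fold in either direction, 85.3% were higher as reported, 68.6% after quantile normalization, 57.1% after centring and 1.99% after spike-in scaling. Dim probes limit Casp8, Bik, Birc3 and the second probes of Fas and Casp12.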

Other observations

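On chromosome 9, neighbouring genes of the caspase and inhibitor families differed from each other, a pattern chosen after its values were seen. Casp1, Casp4 and Casp12 follow one another in the RefSeq gene order, with 0 protein-coding genes between neighbours, and the array places their probes between positions 5307206 and 5372317 of mm9. Casp4 stood at -3.56 in the control and -1.78 in GPHR F/F;Nes, a difference of 1.77, and Casp12 at 1.57, whereas Casp1 stood at -1.71 and -2.02, a difference of -0.31. The inflammatory caspases of this stretch thus lay on both sides of 0. Birc2 and Birc3 are neighbours as well, with 0 protein-coding genes between them. Birc2 differed by -0.22 and 0.20 on its 2 probes, and Birc3 by 1.53 on the 1 of its 4 probes that was measured, in chr9:7868669-7868728 of mm9. None of these differences has a replicate.

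After spike-in scaling, 9 members were at least 2-fold lower, which is 27.3% of those measured, against 38.2% of all genes in that setting. They were Zmat3, Bbc3, Bid, Perp, Bak1, Casp9, Ei24, Bcl2l1 and Aen.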
